A study of Mus musculus with 2 samples.

Results

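Chemokine ligands and receptors were examined as 10 genes picked by symbol from the 16103 genes of the deposited table, and all 10 were listed. They are the CC ligand genes Ccl2, Ccl3, Ccl4, Ccl5 and Ccl12, the CXC ligand genes Cxcl10 and Cxcl12, the CX3C ligand gene Cx3cl1, and the receptor genes Cxcr4 and Cx3cr1. The genes were chosen with earlier results of these libraries known, so every count over them is a description. The study held 2 libraries, 1 labelled TRPM2-KD and 1 labelled Control. Both came from the warm condition and from ICR embryos, a mouse stock that is outbred, whose cortex had received plasmid by in utero electroporation on embryonic day 13. The TRPM2-KD plasmid carried a knockdown construct, named TRPM2-sh1 in the column header, and Control a control plasmid, and cells carrying GFP were collected by flow sorting on day 15. A single construct was used, so effects of that construct and of any lowering of Trpm2 cannot be told apart. The sources used here give neither the number of embryos per library, nor the temperature, nor the promoter behind each construct.

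Chemokines are small secreted proteins that steer moving cells through receptors coupled to Gi proteins, and they are classed by the spacing of their first cysteines as CC, CXC or CX3C. In the embryonic mouse cortex, Cxcl12 from the meninges acts through Cxcr4 on Cajal-Retzius cells, interneurons and intermediate progenitors. Cx3cl1 is made by neurons and its receptor Cx3cr1 marks microglia, while the inflammatory ligands Ccl2, Ccl3, Ccl4, Ccl5, Ccl12 and Cxcl10 are made mostly by activated macrophages, endothelial cells and glia and draw in leukocytes.

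The libraries held 20791236 counted reads in TRPM2-KD and 26209192 in Control. With 1 library per group no difference has a replicate check, no test of the conditions is possible, and each 95% interval below covers counting error only. Every listed gene reached a CPM (its reads scaled to the total of the library) of at least 1.01 in 1 library or both, and all 10 chemokine genes passed that value in both. Trpm2, the targeted gene, had 155 reads in TRPM2-KD and 241 in Control, a ratio of 0.811 (0.658 to 0.996). That interval reached almost to 1, and 28.1% of all genes had a counting interval below 1. The labels call the cells neural stem cells, and the defining markers of radial glia were present, with Sox2 at 65.3 RPKM (reads scaled to gene length and library total) in TRPM2-KD and 64.4 RPKM in Control. The neuronal gene Tubb3 stood at 680 and 743 RPKM in TRPM2-KD and Control, and the complement gene C1qa, a marker of microglia and macrophages, at 48.0 and 34.8 RPKM, so RNA of neuronal and myeloid marker genes was present beside that of radial glia.

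The 10 genes did not share a direction. Ccl5, Ccl2 and Cx3cr1 were higher in TRPM2-KD with counting intervals above 1, Cxcl10, Ccl12, Ccl4 and Cx3cl1 were lower with intervals below 1, and the intervals of Ccl3, Cxcr4 and Cxcl12 spanned 1. In bulk RNA, fewer cells of a type and less RNA per cell cannot be told apart. Of all 16103 genes, each with 20 or more reads, 28.3% had an interval above 1 and 28.1% one below. Ratios ranged from 0.398 for Cxcl10 to 2.95 for Ccl5. The median log2 ratio of RPKM was 0.06 over the 10 genes and -0.002 over all genes. On log2(RPKM + 1), which understates the difference of genes at low levels, only Ccl5 was at least 2-fold higher and no gene of the 10 was 2-fold lower, where 0.915% and 0.686% were among the 13988 genes whose RPKM averaged at least 1. At 1.5-fold on that scale the counts were 2 higher, Ccl5 and Ccl2, and 3 lower, Ccl4, Ccl12 and Cxcl10, against 3.55% and 2.82% of those genes.

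**Figure D1:**
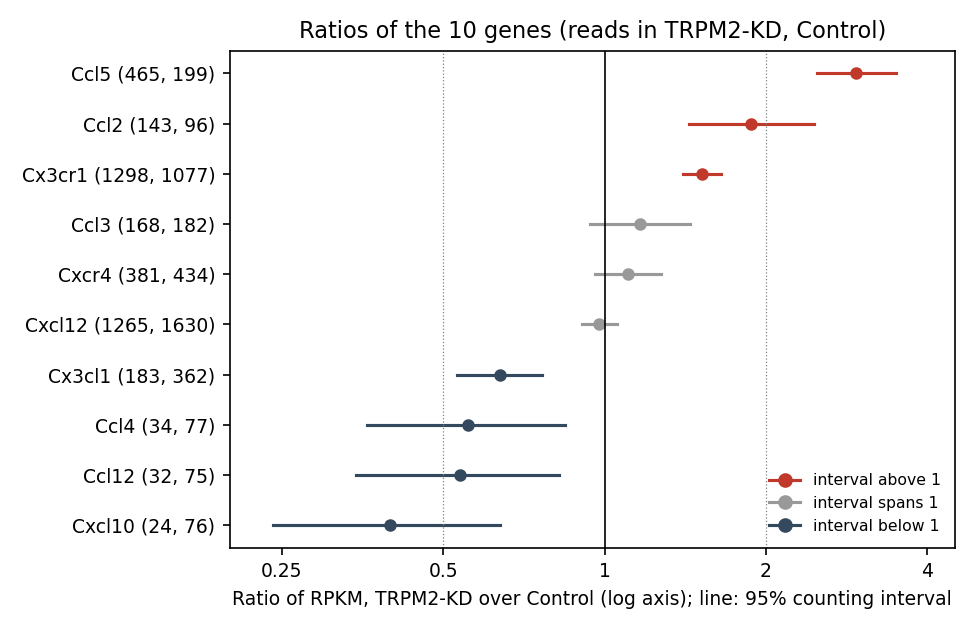
Ratio of RPKM, TRPM2-KD over Control, on a log axis for the 10 genes, with the reads of TRPM2-KD and Control in brackets. Points are ratios and lines 95% counting intervals, dotted lines mark 0.5 and 2, and the order runs from Ccl5 at 2.95 to Cxcl10 at 0.398.

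Ccl5 (ENSMUSG00000035042.2) encodes a ligand of Ccr1 that attracts T cells and monocytes, and it showed the largest ratio of the 10. It had 465 reads in TRPM2-KD and 199 in Control, or 23.3 and 7.90 RPKM. The ratio was 2.95 (2.49 to 3.50), and 344 genes, 2.14% of the table, had a ratio at least as high. In the authors' deposited table Ccl5 has a log2 fold change of 1.56 with a p-value of 0.0221 and an adjusted p-value of 0.850. It is the 1 gene of the 10 that meets the series' rule of a p-value under 0.05 with an absolute log2 fold change over 1, and of all genes in the authors' deposited table, 2.16% meet it upwards and 1.68% downwards. That p-value compares the libraries, not the conditions.

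Ccl2 (ENSMUSG00000035385.5), the main ligand of the monocyte receptor Ccr2, was also higher in the knockdown library. It had 143 reads in TRPM2-KD and 96 in Control, or 6.04 and 3.21 RPKM, and a ratio of 1.88 (1.44 to 2.46). Ccl12 (ENSMUSG00000035352.3), a mouse ligand of the same receptor, went the other way. Its reads numbered 32 in TRPM2-KD and 75 in Control, or 2.86 and 5.32 RPKM, with a ratio of 0.538 (0.344 to 0.824). The TRPM2-KD library thus held 4.47 reads of Ccl2 for each read of Ccl12, and Control 1.28. The ratio of these quotients, which does not depend on how the libraries are scaled, was 3.48 (exact conditional interval 2.09 to 5.89).

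Ccl3 and Ccl4, ligands that activated microglia and macrophages secrete together, also differed in ratio. Ccl3 (ENSMUSG00000000982.5) had 168 reads in TRPM2-KD and 182 in Control, or 10.5 and 9.05 RPKM. Its ratio of 1.16 had an interval from 0.938 to 1.44, so a difference was not detectable at this depth. Ccl4 (ENSMUSG00000018930.3) had 34 reads in TRPM2-KD and 77 in Control, or 2.47 and 4.45 RPKM, and a ratio of 0.557 (0.360 to 0.844). Per read of Ccl4 there were 4.94 reads of Ccl3 in TRPM2-KD and 2.36 in Control, and the ratio between them was 2.09 (1.30 to 3.40).

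The 5 CC ligand genes lie in clusters on mouse chromosome 11, where RefSeq (GRCm38.p6) places Ccl2, Ccl7, Ccl11 and Ccl12 next to each other among the Ccl genes, and further on Ccl5, then Ccl9, Ccl6, Ccl3 and Ccl4. Neighbours differed in ratio within both stretches. In the first, Ccl2 at 1.88 and Ccl12 at 0.538 flank Ccl7, a monocyte attractant with 34 reads in TRPM2-KD and 47 in Control and a ratio of 0.912 (0.569 to 1.45). In the second, Ccl9 had a ratio of 1.44 (1.19 to 1.73) and Ccl6 one of 0.738 (0.575 to 0.943), beside 1.16 for Ccl3 and 0.557 for Ccl4. Ccl9 and Ccl6 are related ligands of Ccr1 found in mice.

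Cxcl10 (ENSMUSG00000034855.7), a ligand of the T cell receptor Cxcr3 that interferon induces, had the lowest ratio and the lowest level of the 10. It had 24 reads in TRPM2-KD and 76 in Control, or 0.758 and 1.91 RPKM, and a ratio of 0.398 (0.241 to 0.637). With so few reads in the knockdown library, the upper end of the interval is a larger multiple of the lower end than for any other gene of the 10. In the annotation (GENCODE M21) 133 bases, or 5.91%, of the exons of Cxcl10 also belong to Art3 on the opposite strand. Art3 had 46 reads in TRPM2-KD and 16 in Control. The treatment of strand is not given in the sources used here, so reads of the shared stretch cannot be told apart, and the part of this in the ratio was not tested. Cxcl9, a further ligand of Cxcr3, had 32 reads in TRPM2-KD and 6 in Control, a ratio of 6.72 (2.77 to 19.7), the opposite direction to Cxcl10. Cxcl9 passed 1.01 CPM in TRPM2-KD only, so it is listed through the library in which it is high. Cxcr3 itself was not listed.

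The stretches before the start sites of Cxcl10, Ccl12 and Ccl3 are shown because the first 2 were among the lowest ratios of the ligands while Ccl3 was near 1. They are the 250 bases before the RefSeq start (GRCm38.p6, a later build than the mm9 of the counts), written 5′ to 3′ along the gene, at chr5:92348890-92349139 on the minus strand, chr11:82101595-82101844 on the plus strand and chr11:83649379-83649628 on the minus strand. Capitals mark matches on either strand to the NF-kappaB pattern (GGG, any 5 letters, CC), the core of the interferon-stimulated response element (GAAA, any 2 letters, GAAA) and the TATA box (TATAAA).
Cxcl10: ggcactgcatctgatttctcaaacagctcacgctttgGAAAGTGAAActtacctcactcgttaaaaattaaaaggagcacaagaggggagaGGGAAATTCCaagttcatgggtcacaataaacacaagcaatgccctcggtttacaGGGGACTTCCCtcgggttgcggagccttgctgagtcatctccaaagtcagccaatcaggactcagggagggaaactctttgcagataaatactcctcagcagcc
Ccl12: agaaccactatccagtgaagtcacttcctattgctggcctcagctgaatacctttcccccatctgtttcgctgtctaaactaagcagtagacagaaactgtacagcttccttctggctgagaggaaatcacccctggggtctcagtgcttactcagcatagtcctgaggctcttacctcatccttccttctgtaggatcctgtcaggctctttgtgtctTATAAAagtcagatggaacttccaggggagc
Ccl3: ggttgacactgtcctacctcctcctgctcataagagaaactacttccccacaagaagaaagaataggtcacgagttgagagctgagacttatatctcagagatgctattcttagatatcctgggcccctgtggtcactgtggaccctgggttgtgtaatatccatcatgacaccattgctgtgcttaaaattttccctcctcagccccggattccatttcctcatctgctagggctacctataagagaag
The Cxcl10 window held 4 matches to the NF-kappaB pattern and 1 match to the interferon element, 213 bases before the start. Of the 4, 3 overlap in a single stretch around 104 bases before the start. In that stretch a match on each strand covers the same bases, so the 4 matches are not 4 separate sites. The Ccl12 window held a TATA box 31 bases before the start and the Ccl3 window no match. Of 32851 such windows in the RefSeq table, 45.8% held the NF-kappaB pattern, 2.98% the interferon element and 12.4% the TATA box. Windows were found by symbol for 7 of the 10 genes, of which Cxcl10, Cxcl12 and Cx3cr1 held the NF-kappaB pattern, Cxcl10 alone the interferon element, and Ccl12, Cxcr4 and Cx3cl1 the TATA box. Ccl2, Ccl4 and Ccl5 were not used here. A match describes letters only.

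The homeostatic pair Cxcl12 and Cxcr4 was at similar levels in both libraries. Cxcl12 (ENSMUSG00000061353.5), with the most reads of the 10 over both libraries, had 1265 reads in TRPM2-KD and 1630 in Control, or 7.43 and 7.60 RPKM, and a ratio of 0.978 (0.908 to 1.05). For Cxcr4 (ENSMUSG00000045382.6) the reads numbered 381 in TRPM2-KD and 434 in Control, or 10.1 and 9.15 RPKM, with a ratio of 1.11 (0.962 to 1.27). At these depths the intervals reach no further than 1.27-fold up and 0.908-fold down. Ackr3, the scavenging receptor that takes up Cxcl12, had 497 reads in TRPM2-KD and 599 in Control, or 7.13 and 6.82 RPKM, and a ratio of 1.05 (0.927 to 1.18). The lists of cells that make or sense Cxcl12 were not all at 1. The 10 meningeal fibroblast markers centred on a log2 ratio of -0.26, with 6 intervals below 1 and 2 above, and a summed level of 142 RPKM in TRPM2-KD and 164 RPKM in Control. The median was 0.27 for the 8 Cajal-Retzius markers, -0.16 for the 10 interneuron lineage markers and -0.02 for the 8 intermediate progenitor markers. Their part in the Cxcl12 and Cxcr4 values was not tested.

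The fractalkine pair parted, with the receptor gene higher and the ligand gene lower. Cx3cr1 (ENSMUSG00000052336.6) had 1298 reads in TRPM2-KD and 1077 in Control, or 16.7 and 10.97 RPKM, and a ratio of 1.52 (1.40 to 1.65). Cx3cl1 (ENSMUSG00000031778.6), whose membrane-bound product is shed by Adam10 and Adam17, had 183 reads in TRPM2-KD and 362 in Control, or 2.37 and 3.72 RPKM, and a ratio of 0.637 (0.531 to 0.763). Reads of the receptor gene per read of the ligand gene came to 7.09 in TRPM2-KD and 2.98 in Control, and the ratio between them was 2.38 (1.95 to 2.92). Both sheddase genes, named after their values were seen, were higher in TRPM2-KD. Adam10 stood at 45.6 RPKM in TRPM2-KD and 37.5 RPKM in Control with a ratio of 1.22 (1.17 to 1.27), and Adam17 at 6.69 and 4.79 RPKM with a ratio of 1.40 (1.27 to 1.53). The 10 neuron markers, from the cells that make Cx3cl1, had 8 ratios below 1 and a median log2 ratio of -0.14. Their ratios ran from 0.813 to 1.09, and 7 intervals lay below 1 and 2 above, beside 28.1% and 28.3% of all genes. They summed to 1756 RPKM in TRPM2-KD and 1935 RPKM in Control. The part of neurons in the Cx3cl1 value was not tested.

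**Figure D2:**
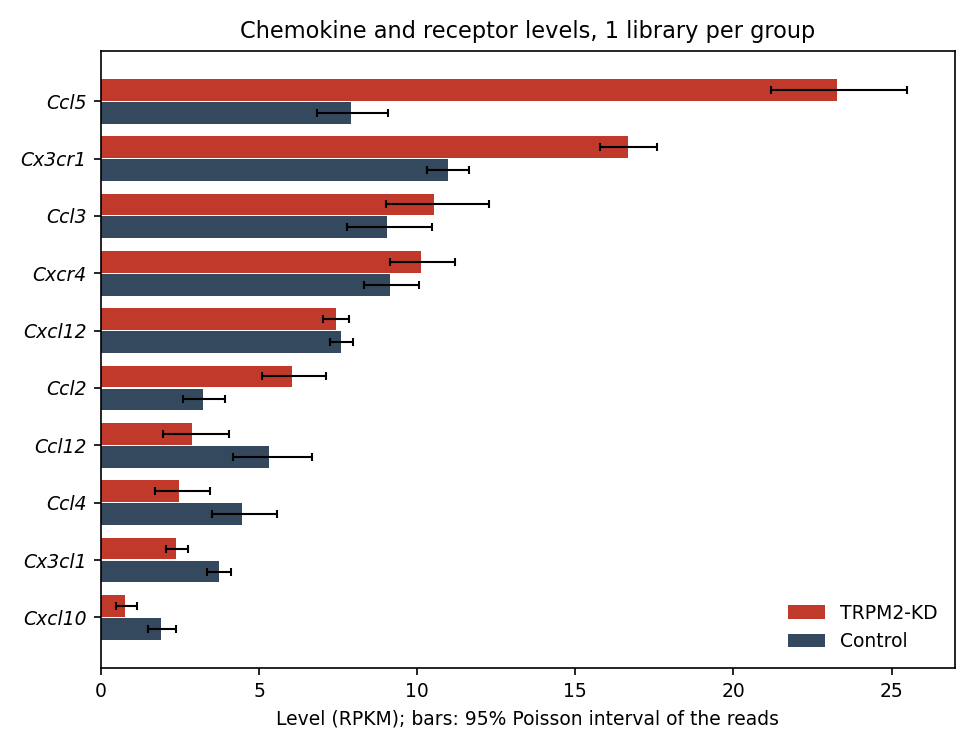
Level of each of the 10 genes in RPKM in the TRPM2-KD library (upper bar) and the Control library (lower bar), 1 library each, with 95% Poisson intervals of the reads. Ccl5 is the longest TRPM2-KD bar at 23.3 RPKM, while Cx3cr1 is the longest Control bar at 10.97 RPKM.

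Levels can be compared between the genes as RPKM, which accounts for their lengths in the authors' annotation. In TRPM2-KD the order was Ccl5 at 23.3, Cx3cr1 at 16.7, Ccl3 at 10.5, Cxcr4 at 10.1, Cxcl12 at 7.43, Ccl2 at 6.04, Ccl12 at 2.86, Ccl4 at 2.47, Cx3cl1 at 2.37 and Cxcl10 at 0.758 RPKM. The exact interval of the ratio between neighbouring levels spanned 1 for Ccl3 over Cxcr4, Ccl12 over Ccl4 and Ccl4 over Cx3cl1, and lay above 1 for the other neighbours, with Cxcl12 over Ccl2 at 1.23 (1.04 to 1.47). In Control the order was Cx3cr1 at 10.97, Cxcr4 at 9.15, Ccl3 at 9.05, Ccl5 at 7.90, Cxcl12 at 7.60, Ccl12 at 5.32, Ccl4 at 4.45, Cx3cl1 at 3.72, Ccl2 at 3.21 and Cxcl10 at 1.91 RPKM. There the interval spanned 1 between each neighbour from Cxcr4 to Cxcl12 and from Ccl12 to Ccl2. Ccl5 was at rank 1 in TRPM2-KD and 4 in Control, and Ccl2 at rank 6 in TRPM2-KD and 9 in Control. Cxcl10 was last in both.

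The summed level of the inflammatory ligands turned on Ccl5. Together the 6 genes Ccl2, Ccl3, Ccl4, Ccl5, Ccl12 and Cxcl10 came to 45.9 RPKM in TRPM2-KD and 31.8 RPKM in Control, a ratio of 1.44. Without Ccl5 the sums were 22.7 RPKM in TRPM2-KD and 23.9 RPKM in Control, a ratio of 0.947. Ccl5 made up 50.7% of the summed level in TRPM2-KD and 24.8% in Control.

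Set against each other pair by pair, the 10 genes gave 45 ratios of read quotients. Of these, 35 had intervals that leave 1 and 10 had intervals that span it. The matching share over pairs drawn from all genes was not computed, so the count of 35 is a description only. Single genes often left 1 too, with 28.3% of all genes above and 28.1% below. All pairs among Ccl4, Ccl12, Cxcl10 and Cx3cl1 had intervals that span 1. These genes were already grouped by their low ratios, so that likeness is in part built in. The quotient of Ccl4 over Ccl12 was 1.06 in TRPM2-KD and 1.03 in Control. Ccl2 over Cx3cr1 gave a ratio of quotients of 1.24 (0.935 to 1.64), and Ccl5 over Cx3cr1 one of 1.94 (1.61 to 2.34). Cx3cr1 set over Ccl3 and over Ccl4 gave 1.31 (1.04 to 1.65) and 2.73 (1.78 to 4.25). These intervals are not adjusted for the 45 pairs.

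Markers of myeloid cells were mostly higher in TRPM2-KD, as were Ccl5, Ccl2 and Cx3cr1. The inflammatory ligand genes Ccl4, Ccl12 and Cxcl10 were lower, at ratios of 0.557, 0.538 and 0.398, and the interval of Ccl3 spanned 1. Of the 20 microglia and macrophage markers, all listed, 18 had a ratio above 1, 14 had an interval above 1 and 1, Cd68, below, and the median log2 ratio was 0.56. Siglech passed 1.01 CPM in TRPM2-KD only, the library in which it is higher. Over the 19 markers that passed in both, 14 intervals lay above 1 and 1 below, and the median was 0.58. For this and the other marker lists, the shares over all genes were 28.3% above and 28.1% below. The 20 markers summed to 300 RPKM in TRPM2-KD and 201 RPKM in Control, a ratio of 1.49 beside 1.52 for Cx3cr1, and none was at 0 in either library. The ADP receptor gene P2ry12 had a ratio of 2.73 (1.82 to 4.17), Aif1 2.29 (1.94 to 2.70) and the adaptor gene Tyrobp 1.97 (1.67 to 2.34). Border macrophage markers, of which 6 of 7 were listed, summed to 28.9 RPKM in TRPM2-KD and 19.98 RPKM in Control, with 4 intervals above 1 and 0 below. Among the 12 monocyte and neutrophil markers, 11 intervals lay above 1 and 1, that of Camp, below, or 10 and 1 of the 11 that passed 1.01 CPM in both libraries, Cxcr2 having passed in TRPM2-KD only. Their summed level was 120 RPKM in TRPM2-KD and 75.2 RPKM in Control, and 2 of the 12, Ccr2 and Cxcr2, are themselves chemokine receptor genes. Siglech, Cd68 and Camp were named after their values were seen. The cells had been sorted for GFP, and whether cells without plasmid were carried along was not tested. Of 10 T and NK cell markers, only the kinase gene Lck was listed, with 47 reads in TRPM2-KD and 100 in Control and a ratio of 0.592 (0.410 to 0.846). Endothelial markers went the other way, with 6 of 10 intervals below 1 and 1 above and sums of 108 RPKM in TRPM2-KD and 129 RPKM in Control. The part of these cells in the chemokine values was not tested.

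**Figure D3:**
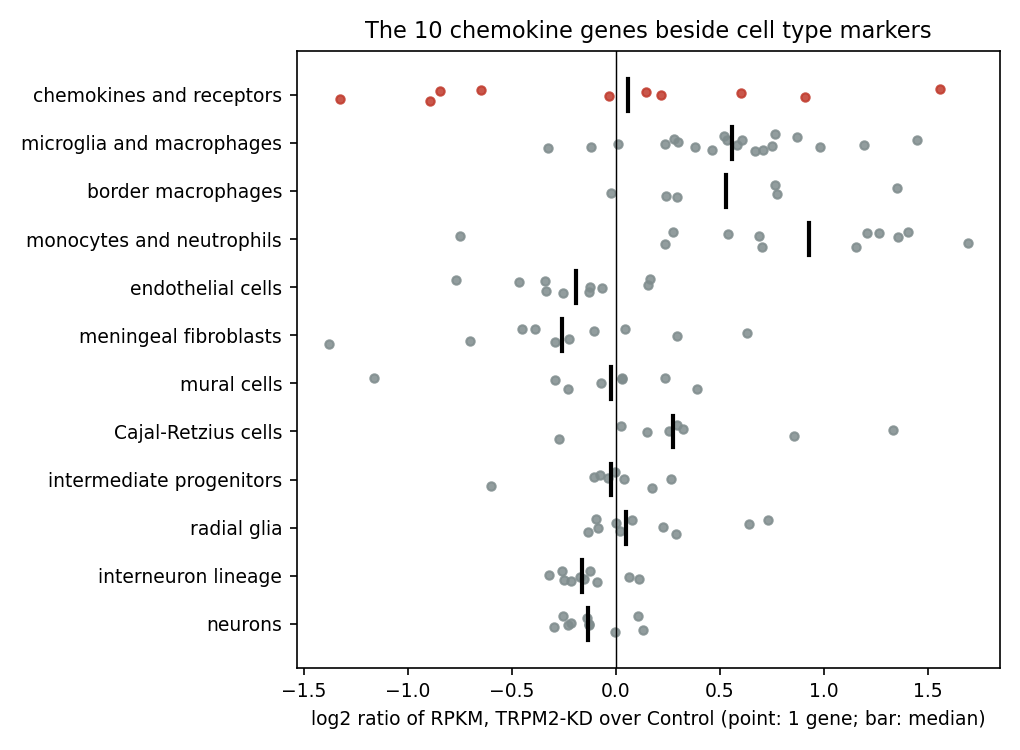
Log2 ratio of RPKM, TRPM2-KD over Control, of each gene (points) in the set of 10 chemokine genes and in 11 lists of cell type markers, with the median as a bar. The chemokine genes spread from -1.33 to 1.56 around a median of 0.06, while the microglia and macrophage markers centre on 0.56 and the neuron markers on -0.14.

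The receptors for the ligands among the 10 were unevenly covered. Ccr2, the receptor of Ccl2 and Ccl12 on monocytes, had 424 reads in TRPM2-KD and 240 in Control, or 3.19 and 1.43 RPKM, and a ratio of 2.23 (1.90 to 2.62). Ccr1, which binds Ccl3 and Ccl5, had 118 reads in TRPM2-KD and 137 in Control, and its ratio of 1.09 (0.842 to 1.40) showed no detectable difference. Ccr1 and Ccl7 were chosen after their values were seen. Chemokine receptor genes resemble one another in sequence, so the split of reads among them, and with it the value of Ccr2, is uncertain.

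Of 55 other chemokine ligand and receptor genes, 26 were listed and 29 were not. Of the 26, 8 passed 1.01 CPM in only 1 library, by construction the one in which they are higher, and they are marked with an asterisk in the plot of the other chemokine genes. Among the 18 that passed in both, 3 had an interval above 1, 5 one below, and 10 one that spans 1, beside 28.3% above and 28.1% below over all genes. Of the 4 CXC ligand genes that passed in both, 3 had an interval below 1 and 1 above. Over all 7 listed CXC ligand genes, 4 intervals lay below 1 and 3 above. Cxcl14, an attractant made by epithelia and some neurons, had 74 reads in TRPM2-KD and 210 in Control and a ratio of 0.444 (0.336 to 0.582). Cxcl2, a neutrophil attractant, had 33 and 84 reads in TRPM2-KD and Control and a ratio of 0.495 (0.321 to 0.749). Cxcl16, a transmembrane ligand of Cxcr6, had a ratio of 0.681 (0.551 to 0.840), and Pf4, a platelet and border macrophage chemokine, one of 1.71 (1.20 to 2.46). The most abundant other ligand gene was Ccl27a, a skin-associated CC chemokine, at 10.5 RPKM in TRPM2-KD and 12.4 RPKM in Control with a ratio of 0.851 (0.760 to 0.952). Ccl27a has a near copy in Ccl27b (listed as Gm13306), so reads could be split between them and the value is uncertain. The most abundant other receptor gene was Ackr1 (listed as Darc), a chemokine-binding protein of erythroid and endothelial cells. It stood at 12.9 and 12.8 RPKM in TRPM2-KD and Control, with a ratio of 1.01 (0.868 to 1.18).

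Among the genes listed through 1 library, the neutrophil attractant gene Cxcl1 had 2 reads in TRPM2-KD and 30 in Control, a ratio of 0.0840 with an interval from 0.00973 to 0.331. The neutrophil receptor gene Cxcr2, which binds Cxcl1 and Cxcl2, had 42 reads in TRPM2-KD and 22 in Control and a ratio of 2.41 (1.40 to 4.23). The eosinophil attractant gene Ccl24 had a ratio of 2.69 (1.61 to 4.62) and Ackr4, a scavenger of homeostatic chemokines, one of 3.96 (1.63 to 10.98). Ccl17 and Ccr9 lay on the low side, at 0.408 (0.186 to 0.824) and 0.280 (0.0946 to 0.693).

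**Figure D4:**
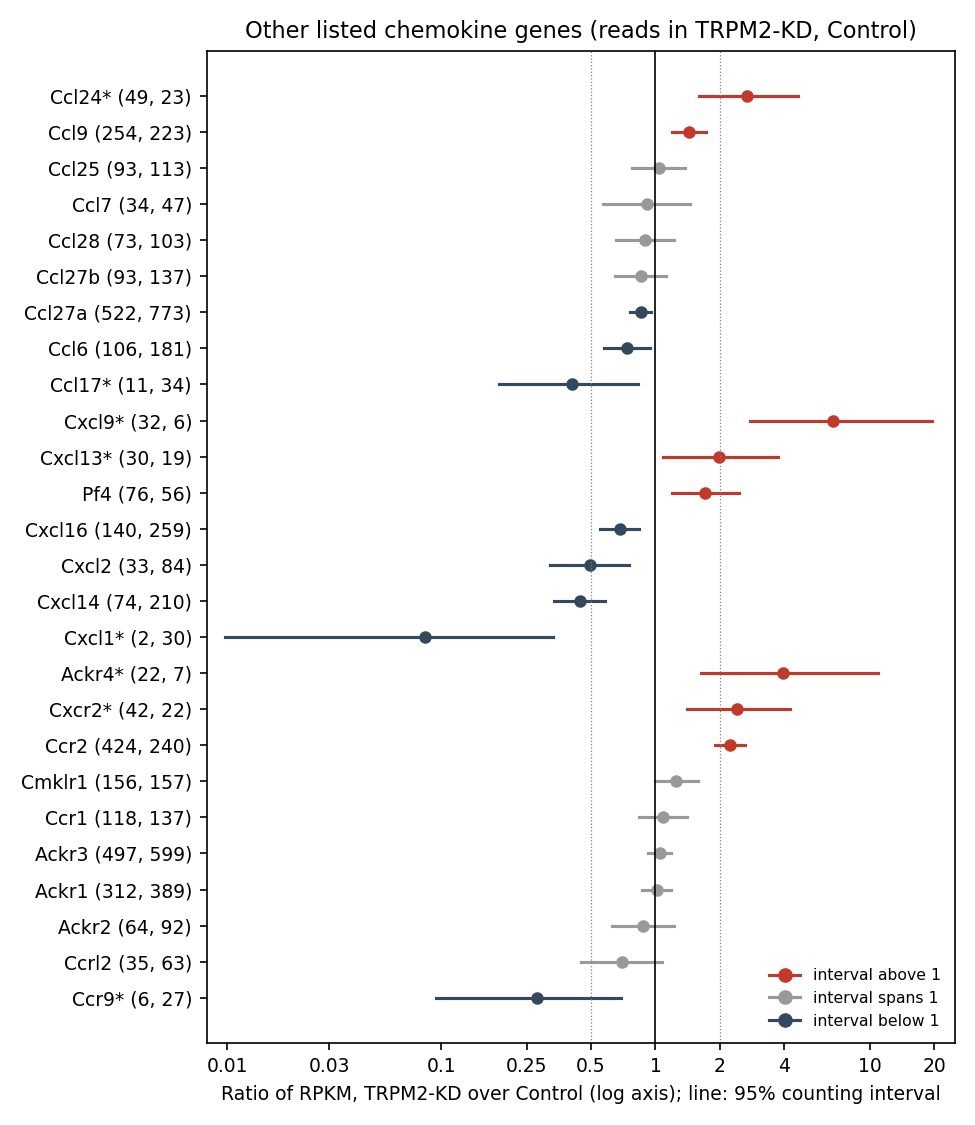
Ratio of RPKM, TRPM2-KD over Control, on a log axis for the 26 other listed chemokine genes, by CC ligands, CXC ligands and receptors from top to bottom, with the reads of TRPM2-KD and Control in brackets and 95% counting intervals as lines. An asterisk marks the 8 genes that passed 1.01 CPM in 1 library only, among them Cxcl9 at 6.72 and Cxcl1 at 0.0840.

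The shared machinery of chemokine signalling had ratios on both sides of 1 and a median near it. Of 26 genes for G protein subunits, arrestins, receptor kinases, downstream effectors and chemokine-processing enzymes, 25 were listed, with 7 intervals above 1, 9 below and 9 that span 1, where 28.3% and 28.1% of all genes lay above and below. The median log2 ratio was -0.01. The abundant subunit genes were close to 1, with Gnb1 at 177 RPKM in TRPM2-KD and 179 RPKM in Control and a ratio of 0.992 (0.971 to 1.01), and Gnai2 at a ratio of 0.947 (0.911 to 0.984). The leukocyte effector genes Plcb2 and Pik3cg had ratios of 2.52 (1.92 to 3.34) and 2.12 (1.66 to 2.72). Dpp4, a protease that trims and inactivates several chemokines including Cxcl10 and Cxcl12, had 26 reads in TRPM2-KD and 88 in Control and a ratio of 0.372 (0.231 to 0.582). Rgs1, which shortens signalling by chemokine receptors, had 34 and 68 reads in TRPM2-KD and Control and a ratio of 0.630 (0.405 to 0.965).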

How the data were processed

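A single table of genes was deposited. For each of 2 libraries it gives, per the file headers, a read count that is not normalised and an RPKM value, scaled by the authors to gene length and library total. The same table holds the authors' log2 fold change, p-value and adjusted p-value, made with a tool the sources do not name. Counting and mapping software is named without a role: TopHat2 2.0.12, HTSeq 0.6.0 and Bowtie2 2.2.3, with build mm9 (per the submitters' processing notes). Strand and annotation are not stated.

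Ratios are RPKM in TRPM2-KD over RPKM in Control. Their 95% intervals are exact conditional binomial (Clopper-Pearson) intervals of the counts, and intervals of levels are exact Poisson intervals (scipy 1.17.1). They cover counting error only and treat reads as independent, which reads made by PCR are not. Those of the ratios were tested on simulated data. The simulated counts were independent too, so that test could not show the effect of PCR copies. Quotients of 2 genes were compared by conditional odds ratios. With 1 library per group no test of the conditions was made. Alternatives were TMM scaling (edgeR 4.0.16), median-of-ratios scaling (DESeq2 1.42.0), upper-quartile scaling, totals without mitochondrial genes, other pseudocounts, filters, folds and interval widths. From each list were named up to 4 genes of highest mean RPKM and up to 4 with the largest absolute log2 ratio among those whose interval leaves 1; others are examples chosen after their values were seen. The 10 genes and all lists were chosen with earlier results of these data known. Some genes are not reported here.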

Additional observations from a re-analysis of the deposited data

How the results depend on the processing

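The choice of scaling made little difference. Under TMM, median-of-ratios and upper-quartile scaling and with library totals without mitochondrial genes, every ratio of the 10 genes stayed inside its main interval (40 of 40 values), and the shift of the whole table was at most 0.002 on the log2 scale. The counts of 3 genes with an interval above 1 and 4 below did not change with 99% intervals, other read minimums and other scalings. The read minimums, at most 50, could not have changed them, because Cxcl10, with the fewest reads of the 10, had 100 over both libraries. The scalings moved the ratios too little to be a strong check. The count past 2-fold depended on the threshold and the pseudocount. At 1.5-fold there were 2 genes higher and 3 lower, instead of 1 and 0. With a pseudocount of 0.1 or of 0 there was 1 gene lower, because the added 1 shrinks the difference of Cxcl10 at its low level. No paired analysis was possible because there was 1 library in each group, and no library could be left out. Depth limits Ccl4, Ccl12 and Cxcl10 most, with 34, 32 and 24 reads in TRPM2-KD.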

Other observations

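Genes that respond to interferon, which induces Cxcl10, were mostly higher in TRPM2-KD. Of 19 such genes, all listed, 17 had a ratio above 1, 12 had an interval above 1 and 0 below, beside 28.3% and 28.1% of all genes, and the median log2 ratio was 0.32. The antiviral genes Oasl1 and Ifi44 had ratios of 2.78 (2.02 to 3.86) and 2.76 (2.10 to 3.65), and the guanylate-binding protein gene Gbp2 one of 2.30. The most abundant of the 19, Bst2 and Isg15, had ratios of 1.31 (1.23 to 1.40) and 0.941 (0.854 to 1.04). Stat2 and Usp18 followed in level, at ratios of 1.05 (0.979 to 1.13) and 1.14 (0.987 to 1.31). Cxcl10 at 0.398 lay below the lowest of the 19, which was 0.900.

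Feedback and cytokine genes of the NF-kappaB pathway, which induces many of the inflammatory ligands, had a median log2 ratio of 0.09 over the genes that passed 1.01 CPM in both libraries. Of 20 genes, 18 were listed and 16 of them passed in both, of which 5 had an interval above 1, 2 below and 9 one that spans 1, beside 28.3% above and 28.1% below over all genes. Nfkbia, the inhibitor that the pathway itself induces, had 682 reads in TRPM2-KD and 919 in Control and a ratio of 0.936 (0.846 to 1.03). Cd14, a co-receptor for bacterial lipopolysaccharide, was at 1.67 (1.33 to 2.10) and the stress-induced gene Ier3 at 0.623 (0.498 to 0.775).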
